A study of Homo sapiens with 48 samples.

Results

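The DNAJ family, also called HSP40 or J proteins, was followed through 48 RNA-seq libraries of THP-1, a human line of acute monocytic leukemia. Its members were taken by symbol, as DNAJA, DNAJB or DNAJC with a number and at most 1 letter. There were 45 of them among the 24462 gene symbols of the count files: 4 in subfamily A, 13 in B and 28 in C. The expression filter kept 15642 symbols and 40 members, of which 4 were of subfamily A, 10 of B and 26 of C. Under the filter were DNAJB3 and DNAJB8 with 0 counts in 48 libraries, and DNAJB13, DNAJC5G and DNAJC12, each below 1 CPM in every library.

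J proteins bring unfolded chains to HSP70 and start its ATP hydrolysis through the J domain. Subfamily A keeps the full layout of the bacterial DnaJ protein, subfamily B lacks its zinc finger, and subfamily C shares little beyond the J domain. Most cell compartments that hold an HSP70 have J proteins of their own, and some cytosolic members are known heat shock genes, while some of the ER (endoplasmic reticulum) lumen are known targets of the unfolded protein response. The members fell by textbook location into the cytosol and nucleus (15 tested of 17), the ER lumen (4 of 4), the ER membrane (6 of 6), mitochondria (5 of 5) and vesicles and endosomes (4 of 5), with 6 of 8 left without a compartment.

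Cells were kept for 12 h with 1 of 12 chemicals, each in 3 libraries: mercuric chloride, cyclosporine, dexamethasone, prednisolone, tofacitinib, tacrolimus, lipopolysaccharide (LPS), sodium lauryl sulfate, aciclovir, ribavirin, genistein or benzoic acid. Mercuric chloride is a thiol-reactive metal salt, cyclosporine and tacrolimus are calcineurin inhibitors, dexamethasone and prednisolone are glucocorticoids, tofacitinib is a JAK kinase inhibitor, and LPS is a bacterial cell wall component. Each was given at its CV90, a dose set by cell viability, whose value no label states. The references were 6 libraries with the vehicle dimethyl sulfoxide (DMSO) and 6 untreated ones, and both kinds were split evenly over a series 1 and a series 2. The treatment protocol gives 0.1% DMSO, while by title the 3 vehicle libraries of series 1 had 0.1, 0.2 or 0.3% and those of series 2 had 0.4, 0.5 or 0.6%. The cells were a single line at passages given only as a range, and no label states whether a group's 3 libraries were separate cultures. The p-values therefore cover library-to-library spread, part or all of which may be technical.

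Library totals were 5.95 to 6.96 M counts with mercuric chloride and 7.13 to 11.5 M elsewhere. The mercuric chloride libraries stood apart, with counts in 18600 to 18989 symbols against 15527 to 17141 elsewhere, and with 11.9 to 12.0% of counts in their 10 most abundant symbols against 5.43 to 6.87%. Dexamethasone replicate 3 had the fewest symbols of all, 15527, and it and benzoic acid replicate 3 differed most from the other libraries of their groups, by a chi-square per degree of freedom of 29.4 to 43.1 against at most 14.4 for other pairs. Summed over 12 monocyte markers, levels were 1249 to 3413 CPM (counts per M of the unscaled library total), of which ITGB2, LYZ and CTSS are examples, although CD14 reached only 6.25 and MPO 6.15. ITGB2 alone had 697 to 2341 CPM. The T cell marker CD3E had 0 counts in every library, while CD3D, CD2 and CD5 reached 0.506, 0.214 and 1.91 CPM. Of the B cell markers PAX5 had 7.04 to 21.1 CPM, above the highest values of CD14 and MPO.

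Levels below are CPM on the TMM-scaled library total. The libraries are described as made with a Lexogen Quant-Seq kit, whose catalogue number and name may not match. The levels carry no length correction. They are therefore compared between groups and not between genes, apart from sums over genes and the place and family share of DNAJB1. A member was called, or rose or fell, at an adjusted p under 0.05 against both vehicle series in edgeR's quasi-likelihood test with Benjamini-Hochberg adjustment over 15642 genes. Log2 fold changes are means over both vehicle series, with a standard error (SE) that does not cover the difference between them. No source used here says whether counting used strand. Exons of DNAJB7, DNAJB9, DNAJB11, DNAJC2, DNAJC7, DNAJC9, DNAJC11, DNAJC14, DNAJC16, DNAJC17 and DNAJC19 overlap genes on the opposite strand that the files also list, those of DNAJC9 also overlap MRPS16 and those of DNAJC25 the read-through gene DNAJC25-GNG10 on their own strand, and these members are uncertain to that extent.

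Most member calls were with mercuric chloride. With mercuric chloride 23 of 40 members were called, 18 up and 5 down, where 41.9% of all genes were called, 21.8% up and 20.1% down. Dexamethasone gave 5 calls (2 up, 3 down) where 8.57% of all genes were called, 4.99% up and 3.58% down. Cyclosporine gave 2, both up, where 0.831% of genes were called and 0.703% up. Tofacitinib gave 1, down, where 2.32% were called and 1.23% down, and LPS 1, down, where 7.2% were called and 2.64% down. Of the 32 calls over 12 treatments, 23 were thus with mercuric chloride and 9 with the others, 25 members were called in at least 1 treatment and 6 in at least 2. Over all members, called or not, the median log2 fold change was 0.53 with mercuric chloride against -0.01 over all genes, and it lay between -0.18 and 0.08 in the other 11 treatments.

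**Figure D1:**
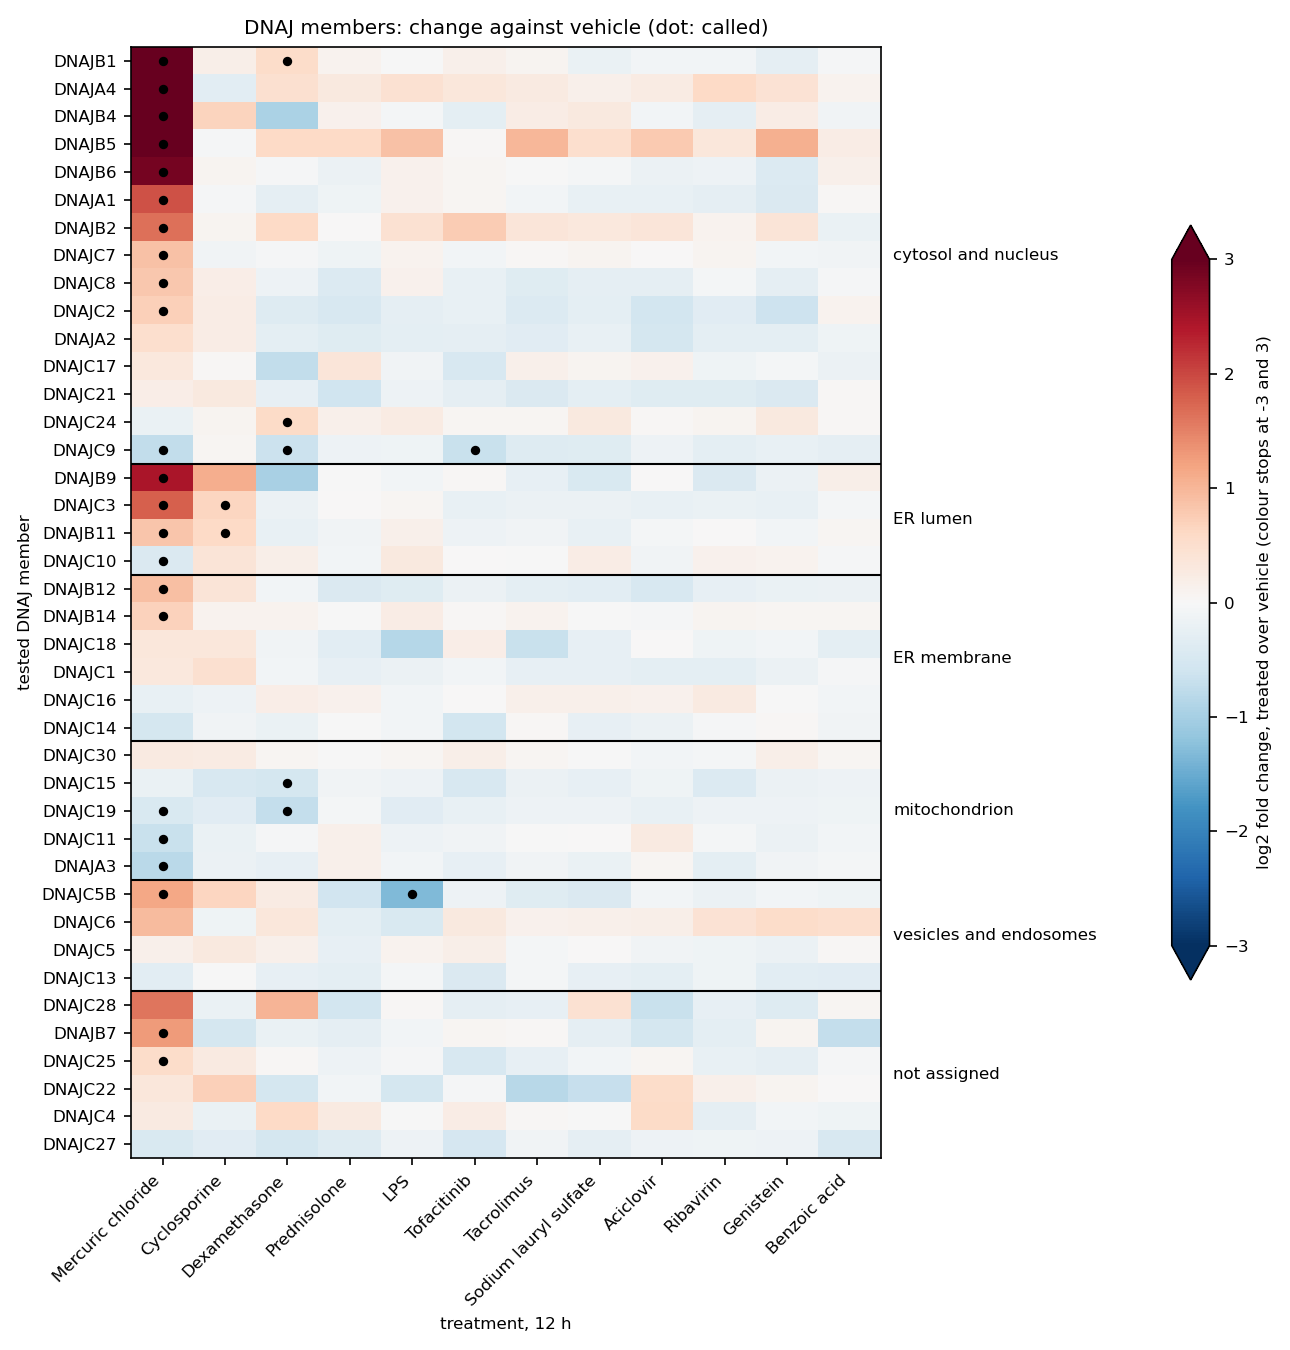
Log2 fold change of the 40 tested members (rows, grouped by compartment) in 12 treatments (columns) against the mean of both vehicle series, with the colour scale stopping at 3 in size and dots on called members. The mercuric chloride column holds 23 of the 32 dots, and its strongest colours are in the rows of the cytosol and nucleus.

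Summed over the 45 members, the family reached 13046 ± 736 CPM with mercuric chloride, against 2290.0 ± 14.9 CPM in vehicle series 1 and 2720.4 ± 33.3 CPM in vehicle series 2 (SD, n = 3 each). Across the remaining 11 treatments the sum ranged between 2174 ± 9.88 CPM (genistein) and 2770.1 ± 25.4 CPM (cyclosporine). As a share of unscaled counts the family took 0.994 ± 0.0446% with mercuric chloride, against 0.236 ± 0.00128% and 0.267 ± 0.00265% in vehicle series 1 and 2, so the sum was higher without TMM scaling too. Members of the cytosol and nucleus gave 11744 CPM of the mercuric chloride sum, against 1356 and 1715 CPM in vehicle series 1 and 2. In bulk RNA, a change in the share of cells that express a gene and a change in RNA per cell cannot be told apart.

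**Figure D2:**
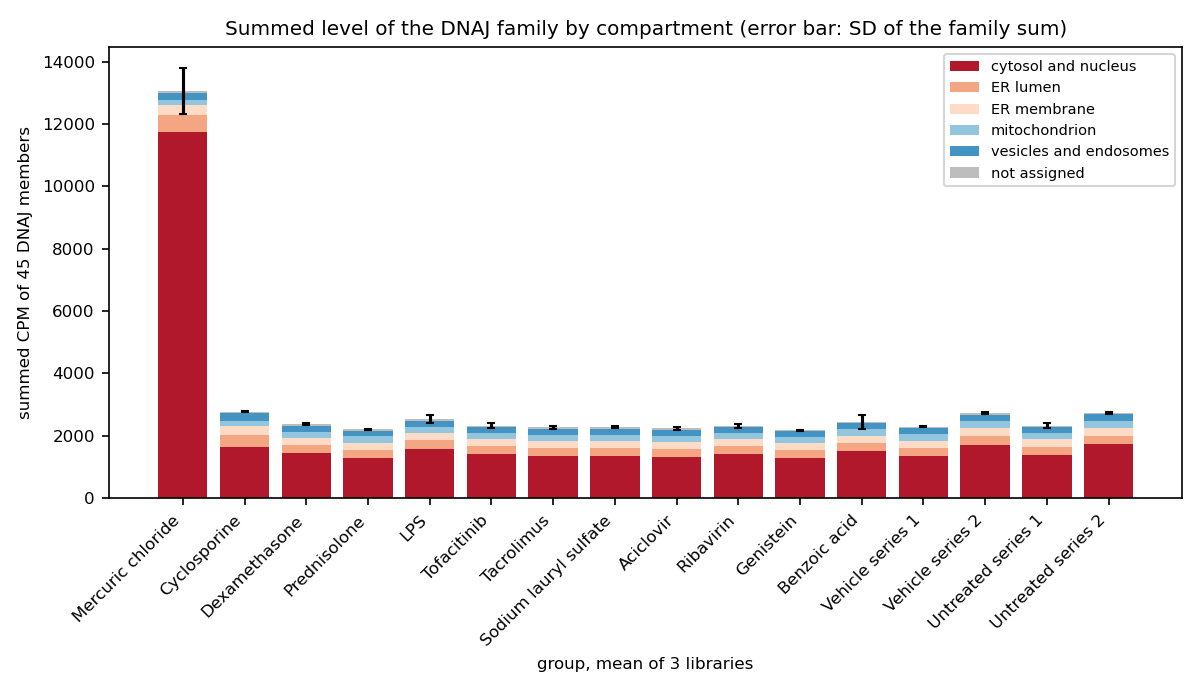
Summed CPM of the 45 members in each of 16 groups, stacked by compartment, as means of 3 libraries with the SD of the family sum as error bar. The mercuric chloride bar stands at 13046 CPM and every other bar between 2174 and 2770.1 CPM, and most of the mercuric chloride bar is cytosol and nucleus.

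Under mercuric chloride the 5 members with the largest fold changes were of the cytosol and nucleus, where 10 of 15 tested members rose and 1 fell. Of all genes 21.8% rose and 20.1% fell. DNAJB1, the classical heat-inducible HSP40, had 7481, 6630.0 and 6145 CPM with mercuric chloride, against 104, 103 and 102 CPM in vehicle series 1 and 140.4, 130.3 and 135 CPM in vehicle series 2. All 3 treated libraries lay far above all 6 vehicle libraries, and the change was 57.2-fold (log2 5.84 ± 0.09, SE, adjusted p = 1.09e-35). By raw count DNAJB1 was the 10th, 13th and 15th most abundant symbol of the mercuric chloride libraries, against places 1457 to 2046 in the vehicle libraries. It made up 49.5 to 54.0% of the family's counts with mercuric chloride, against 4.46 to 5.15% with vehicle.

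DNAJA4, a heat-inducible J protein of subfamily A, had 2133, 2107 and 2060.05 CPM with mercuric chloride, against 67.4 (lowest), 76.7 (median) and 109.6 CPM (highest) over the 6 vehicle libraries (26.1-fold, log2 4.71 ± 0.08, adjusted p = 1.18e-34). DNAJA1, a main partner of cytosolic HSP70, had 682, 660.3 and 719 CPM with mercuric chloride, against 172, 184 and 193 CPM with vehicle (lowest, median and highest; 3.74-fold, log2 1.90 ± 0.10, adjusted p = 4.64e-17). Neither gene's groups overlapped. DNAJA2, its constitutive relative, had 89.5, 97.6 and 85.2 CPM with mercuric chloride, against 44.8, 67.3 and 82.7 CPM with vehicle (lowest, median and highest), and was not called (log2 0.50 ± 0.10, adjusted p = 0.292). Its vehicle libraries differed by series.

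DNAJB4, a close relative of DNAJB1, had 56.7, 56.9 and 59.9 CPM with mercuric chloride, against 1.78, 2.86 and 4.74 CPM with vehicle (lowest, median and highest; 19.9-fold, log2 4.31 ± 0.27, adjusted p = 1.08e-13). DNAJB5, another relative of DNAJB1, had 27.6, 27.9 and 20.2 CPM with mercuric chloride, against 3.57, 3.38 and 4.06 CPM in vehicle series 1 and 0.755, 1.78 and 2.35 CPM in vehicle series 2. Its change was 10.3-fold over both (log2 3.37 ± 0.27, adjusted p = 5.46e-10), or 2.78 on the log2 scale against series 1 and 3.96 against series 2. DNAJB6, a suppressor of polyglutamine aggregation, had 490.0, 442 and 419.6 CPM with mercuric chloride, against 56.6, 61.5 and 67.0 CPM with vehicle (lowest, median and highest; 7.28-fold, log2 2.86 ± 0.07, adjusted p = 1.26e-28). DNAJB2, which carries ubiquitin-interacting motifs, had 15.5, 18.7 and 16.7 CPM against 4.14, 5.48 and 6.93 CPM (log2 1.64 ± 0.19, adjusted p = 3.54e-07). In each of these 4 genes every mercuric chloride library was above every vehicle library.

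Smaller rises in the cytosol and nucleus were those of DNAJC7, which binds HSP70 and HSP90 (log2 0.89 ± 0.08), DNAJC8, a splicing-associated nuclear protein (0.80 ± 0.07), and DNAJC2, which binds ribosomes (0.72 ± 0.12). DNAJC8 and DNAJC2 were closer to vehicle series 2 than to series 1, with log2 fold changes of 0.50 and 0.38 against series 2 and 1.11 and 1.06 against series 1. DNAJC9, a histone chaperone, fell to 26.2, 30.3 and 29.9 CPM with mercuric chloride, against 39.5, 38.1 and 37.9 CPM in vehicle series 1 and 60.5, 62.4 and 56.5 CPM in vehicle series 2 (log2 -0.74 ± 0.09, adjusted p = 0.000511).

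Promoter sequence is shown for 5 of the members that rose by at least 1 on the log2 scale, picked because each holds letters of a heat shock element. This element is the binding motif of the heat shock factors and is built of GAA units in alternating orientation. DNAJB5 and DNAJB9 rose more than DNAJA1 and are not shown, as no match was found for them. Each line gives 100 bases of the 250 before a RefSeq transcription start on build GRCh38.p14, 5′ to 3′ on the gene's strand, with the matches in capitals. They lie at chr19:14518398-14518497 (minus strand) for DNAJB1, chr15:78264462-78264561 (plus) for DNAJA4, chr1:78004819-78004918 (plus) for DNAJB4, chr7:157336854-157336953 (plus) for DNAJB6 and chr9:33025053-33025152 (plus) for DNAJA1.
DNAJB1: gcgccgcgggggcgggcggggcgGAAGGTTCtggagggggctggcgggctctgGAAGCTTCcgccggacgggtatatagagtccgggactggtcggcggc
DNAJA4: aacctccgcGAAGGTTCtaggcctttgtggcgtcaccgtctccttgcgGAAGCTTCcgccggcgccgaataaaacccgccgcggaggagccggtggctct
DNAJB4: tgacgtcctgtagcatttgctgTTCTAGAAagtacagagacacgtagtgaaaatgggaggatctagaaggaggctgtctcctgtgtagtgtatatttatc
DNAJB6: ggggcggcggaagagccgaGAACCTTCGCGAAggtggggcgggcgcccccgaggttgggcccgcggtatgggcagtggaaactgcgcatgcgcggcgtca
DNAJA1: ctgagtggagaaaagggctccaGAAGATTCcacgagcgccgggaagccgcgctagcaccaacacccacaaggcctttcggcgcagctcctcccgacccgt

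The element of 3 units (GAA, TTC and GAA, or TTC, GAA and TTC, each 2 bases apart, either strand) was in 0.441% of 35116 starts in the RefSeq table and, of the 52 starts of 40 DNAJ members matched by symbol, in the 1 of DNAJB6. The looser match of 2 units, GAANNTTC or TTCNNGAA, which lies inside the longer element and was chosen after values were seen, was in 11.6% of all starts and in 7 of the members' 52. DNAJB1 and DNAJA4 each held it in 2 places, 77 to 70 and 47 to 40 bases before the start of DNAJB1 and 91 to 84 and 52 to 45 bases before that of DNAJA4. It was found for 6 of the 10 members with a promoter that rose by at least 1 on the log2 scale with mercuric chloride (DNAJA1, DNAJA4, DNAJB1, DNAJB4, DNAJB6 and DNAJB7) and for 1 of 26 other tested members (DNAJC15). By symbol, 14% of 27305 held it. No match was found for DNAJB5, DNAJB9, DNAJC3, DNAJB2 and DNAJC5B, which rose by at least 1 too, though not all had a promoter in the RefSeq table. Since the match was chosen with these values known, the split is a description, and a link to the rises was not tested. The ER stress element, CCAAT and CCACG 9 bases apart on either strand, was in 0.074% of all starts and in none of the members'. These are matches of letters, and no binding was measured.

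**Figure D3:**
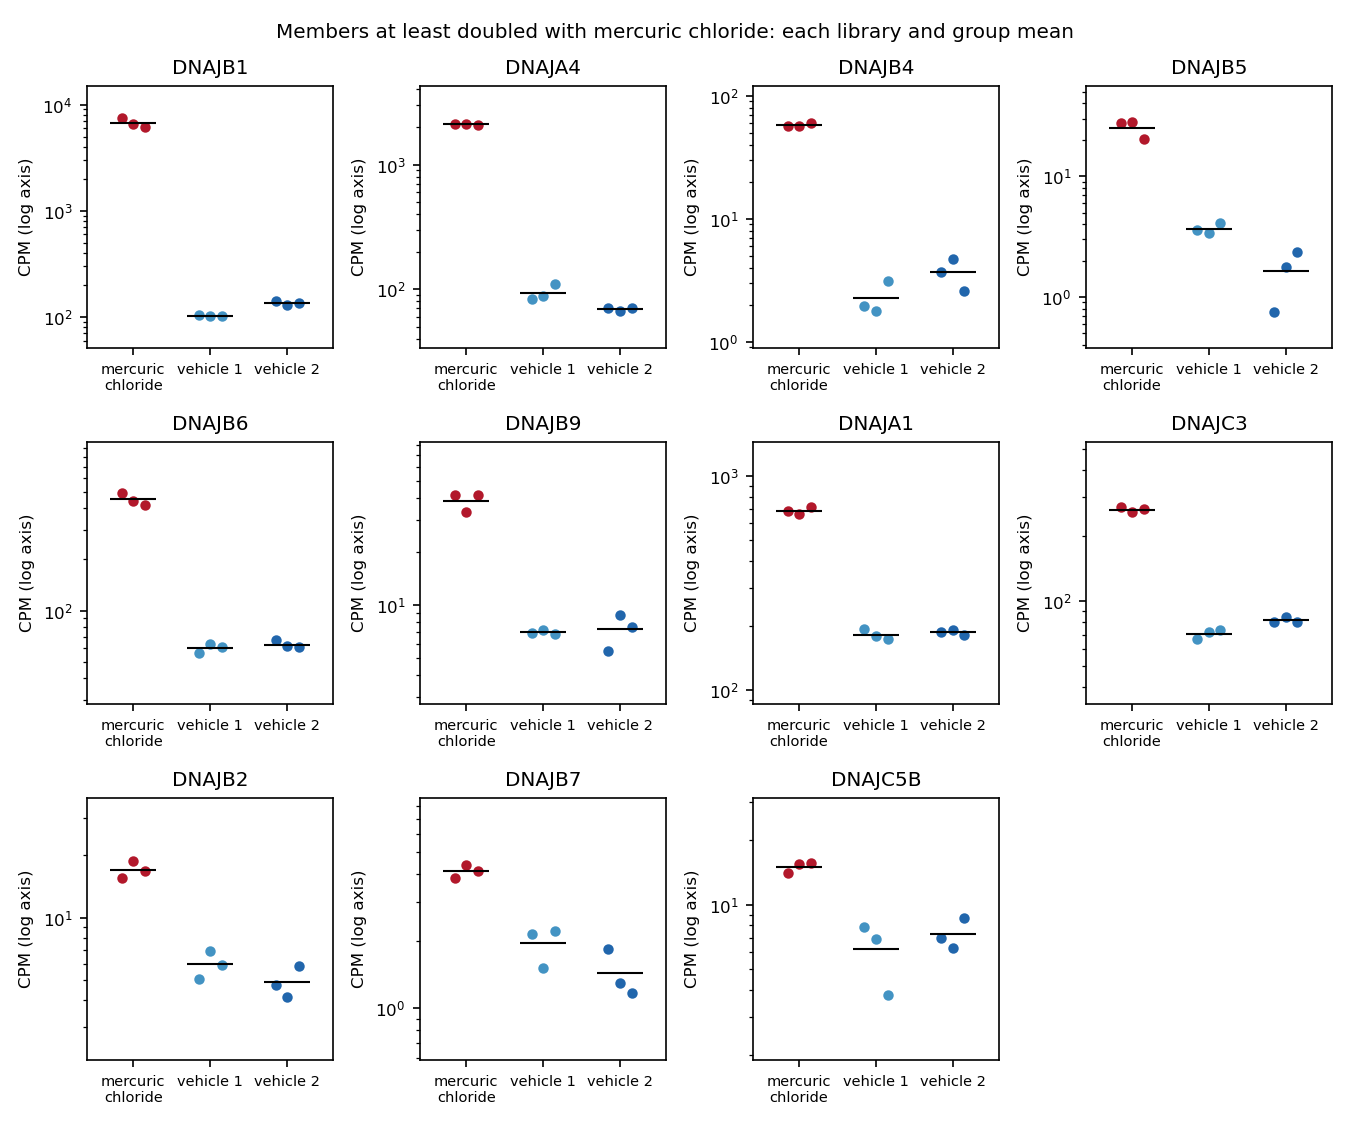
CPM per library, on a log axis, of the 11 members that rose by at least 1 on the log2 scale with mercuric chloride, with mercuric chloride left of vehicle series 1 and vehicle series 2, and 3 points per group. The mercuric chloride points of each member stand above all of its vehicle points, from 7481 CPM for DNAJB1 down to 3.83 CPM for DNAJB7.

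In all, 11 of 40 members rose by at least 1 on the log2 scale with mercuric chloride, where 14.4% of all genes did so. In the ER lumen, where BiP (HSPA5) is the HSP70, 3 members rose and 1 fell, while 21.8% of all genes rose and 20.1% fell. DNAJB9, or ERdj4, which restrains the stress sensor IRE1, had 41.6, 33.3 and 41.5 CPM with mercuric chloride, against 5.50, 7.06 and 8.76 CPM with vehicle (lowest, median and highest; 5.45-fold, log2 2.45 ± 0.27, adjusted p = 5.78e-08). DNAJC3, or p58IPK, an inhibitor of the kinases PERK and PKR that also serves in the ER lumen, had 269.9, 256 and 266 CPM against 67.1, 76.8 and 84.5 CPM (3.47-fold, log2 1.80 ± 0.07, adjusted p = 1.37e-20). DNAJB11, or ERdj3, which hands unfolded chains to BiP, had 192, 206 and 199 CPM against 104, 112 and 118 CPM (log2 0.84 ± 0.07, adjusted p = 3.33e-11). The groups of these 3 genes did not overlap. DNAJC10, or ERdj5, a disulfide reductase, fell to 52.1, 47.1 and 52.2 CPM with mercuric chloride, against 64.9, 68.2 and 70.4 CPM with vehicle, again without overlap (log2 -0.43 ± 0.10, adjusted p = 0.00156).

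Mitochondrial members did not rise: 3 of 5 fell and 2 were not called, where 21.8% of all genes rose and 20.1% fell. DNAJA3, or TID1, the partner of mitochondrial HSP70 in the matrix, had 27.4, 29.9 and 30.3 CPM with mercuric chloride, against 44.2, 51.8 and 57.3 CPM with vehicle (lowest, median and highest; log2 -0.81 ± 0.12, adjusted p = 1.34e-06). DNAJC11, associated with the MICOS complex of the inner membrane, had 37.2, 37.0 and 33.8 CPM against 50.8, 55.3 and 68.0 CPM (log2 -0.66 ± 0.10, adjusted p = 0.000314). DNAJC19, or TIM14, of the protein import motor, had 22.6, 25.5 and 29.5 CPM against 33.3, 35.1 and 37.2 CPM (log2 -0.45 ± 0.16, adjusted p = 0.0467). In these 3 genes every treated library lay below every vehicle library, and the call of DNAJC19 was lost without mercuric chloride replicate 1 (log2 -0.37, adjusted p = 0.181) or replicate 2, without vehicle series 1 replicate 1 or 2, and without any replicate of vehicle series 2 (-0.47 to -0.43). DNAJC15 and DNAJC30 had log2 fold changes of -0.19 ± 0.13 and 0.26 ± 0.17.

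At the ER membrane 2 of 6 members rose, DNAJB12 (log2 0.91 ± 0.13) and its relative DNAJB14 (0.69 ± 0.08), which hold their J domains in the cytosol. Of all genes 21.8% rose. DNAJC5B, a relative of the cysteine string protein of secretory vesicles, had 13.98, 15.5 and 15.7 CPM with mercuric chloride, against 3.78, 6.97 and 8.69 CPM with vehicle (lowest, median and highest; log2 1.16 ± 0.24, adjusted p = 0.00226). It was the 1 called member of 4 tested in vesicles and endosomes, where 41.9% of all genes were called. Of members without a compartment, DNAJB7, known from germ cells, had 3.83, 4.36 and 4.13 CPM against 1.17, 1.67 and 2.22 CPM (log2 1.28 ± 0.35, adjusted p = 0.0272), and DNAJC25, which shares exons with DNAJC25-GNG10, rose by 0.55 ± 0.12. The call of DNAJB7 was lost without mercuric chloride replicate 2 (log2 1.23, adjusted p = 0.0747) or replicate 3 (1.27, adjusted p = 0.0607), or without vehicle series 1 replicate 2 (1.20, adjusted p = 0.111). That of DNAJC2 was lost without mercuric chloride replicate 1 (0.65, adjusted p = 0.118) or 3 (0.70, adjusted p = 0.0692), or without vehicle series 2 replicate 1 (0.68, adjusted p = 0.126) or 3 (0.71, adjusted p = 0.0604).

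By subfamily, mercuric chloride gave 2 calls up and 1 down among 4 tested members of A, 10 up and 0 down among 10 of B, and 6 up and 4 down among 26 of C. Of all genes 41.9% were called, 21.8% up and 20.1% down, and the 38.5% called in C was near that share. The median log2 fold changes of A, B and C were 1.20, 2.04 and 0.26, against -0.01 over all genes. Every mercuric chloride library was above all 6 vehicle libraries for 21 members and below them for 6, where 26.2% and 24.4% of all genes were so placed. Calls of some smaller rises depended on scaling. The TMM factors of the mercuric chloride libraries were 0.752 to 0.772, against 0.959 to 1.06 elsewhere, and with totals left unscaled the median of all genes moved to -0.41. On that scale 22 members were called, 13 up and 9 down, where 8196 of 15642 genes were called, 2207 up and 5989 down, and the calls of DNAJB7, DNAJB12, DNAJC2, DNAJC8 and DNAJC25 were lost. The other 13 rises and all 5 falls kept their calls.

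The genes that J proteins work with were counted in the same fit, where mercuric chloride gave calls in 41.9% of all genes, 21.8% up and 20.1% down. Of 12 tested genes of the HSP70 family 11 rose with mercuric chloride and 0 fell, with a median of 1.55. HSPA6, the strictly stress-inducible HSP70, had 5366 to 7108 CPM with mercuric chloride against 0.592 to 2.22 CPM with vehicle, and HSPA1A, the main inducible HSP70, 20110 to 24888 CPM against 44.6 to 70.7 CPM (log2 8.64 ± 0.12). HSPA1A and HSPA1B are near-identical copies and HSPA6 has a close pseudogene, so how reads divide among them is uncertain. Among 11 nucleotide exchange factors, which release ADP from HSP70, 3 rose and 1 fell, with BAG3 at log2 4.68 ± 0.14, HSPH1 at 3.37 ± 0.08 and BAG4 at -0.48 ± 0.10. As a list they had 36.4% called, below the share over all genes, and a median of 0.07. HSP90 and its cochaperones gave 11 rises and 2 falls among 14, led by CHORDC1 (3.10 ± 0.11) and HSP90AA1 (3.00 ± 0.11). The chaperonins gave 8 rises among 10, with the mitochondrial pair HSPD1 (1.87 ± 0.07) and HSPE1 (1.65 ± 0.09) at their head. Of 8 small heat shock proteins 4 were tested and 2 rose, HSPB1 (2.54 ± 0.11) and CRYAB. CRYAB had 859 to 1003 counts in the mercuric chloride libraries, 0 or 1 in the vehicle libraries and at most 3 in any of the 45 others. It passed the expression filter only through the mercuric chloride libraries, so its call was not an open test.

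Among 4 tested genes, heat shock factors and the binding protein HSBP1, the 1 called was HSBP1, a negative regulator of heat shock factor 1 (log2 0.47 ± 0.08). ER chaperones and unfolded protein response genes gave 12 rises and 0 falls among 18, with HERPUD1 (2.33 ± 0.12), DDIT3 (2.04 ± 0.08) and HSPA5 (1.60 ± 0.06). Mitochondrial chaperones and proteases gave 5 rises and 2 falls among 10, where 21.8% of all genes rose and 20.1% fell. HSPA9, the mitochondrial HSP70, rose by 1.497 ± 0.07, whereas its J proteins DNAJA3 and DNAJC19 fell. Markers outside the monocyte list also moved with mercuric chloride. The 4 fibroblast markers summed to 29.6 to 32.2 unscaled CPM against 0 to 1.14 with vehicle, nearly all of it from COL1A1, while COL1A2 stayed at or below 0.336 CPM. The 4 epithelial markers summed to 1.01 to 13.8 against 0 to 0.579, mostly in replicate 1, which had 32 EPCAM and 47 KRT18 counts against 0 to 4 in the other 2 mercuric chloride libraries. The 4 erythroid markers summed to 2.02 to 6.16 against 0.183 to 0.667, the 4 B cell markers to 10.5 to 13.1 against 13.6 to 21.4, the 4 T cell markers to 0 to 0.790 against 0.106 to 1.65, and the 12 monocyte markers to 1249 to 1309 against 1754 to 2015. Their part in the DNAJ values was not tested.

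With cyclosporine 2 of the 4 members of the ER lumen rose and the other 2 were not called, where 0.703% of all genes rose. DNAJC3 had 124, 122 and 108 CPM with cyclosporine, against 67.1, 76.8 and 84.5 CPM with vehicle (lowest, median and highest; log2 0.64 ± 0.08, adjusted p = 0.000143). DNAJB11 had 178, 169 and 157 CPM against 104, 112 and 118 CPM (log2 0.60 ± 0.07, adjusted p = 1.21e-05). Both rose, by 1.56 and 1.51-fold, with no overlap between the groups. DNAJB9 had 13.2, 18.8 and 13.7 CPM against 5.50, 7.06 and 8.76 CPM and was not called (log2 1.10 ± 0.28, adjusted p = 0.188). DNAJC10 had 90.07, 90.03 and 85.2 CPM against 64.9, 68.2 and 70.4 CPM and was not called either (log2 0.38 ± 0.09, adjusted p = 0.0976). For these 2 genes too every cyclosporine library was above every vehicle library, as for 7 members in all (5.77% of all genes; 2 members and 5.59% of genes lay below). Both were called when the cyclosporine and vehicle libraries were fitted alone, DNAJB9 at a log2 fold change of 1.11 and DNAJC10 at 0.38.

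The sum of the 4 ER lumen members was 389.9 ± 22.1 CPM with cyclosporine, against 259.8 ± 3.33 CPM in vehicle series 1 and 265 ± 5.21 CPM in vehicle series 2 (SD, n = 3 each). With mercuric chloride it was 552 ± 8.86 CPM and with LPS 292.6 ± 7.77 CPM. Under LPS no ER lumen member was called by edgeR, with 1 of 4 at an unadjusted p under 0.05, DNAJC10 at a log2 fold change of 0.30 ± 0.09 (adjusted p = 0.0976). No member of the 15 tested in the cytosol and nucleus was called with cyclosporine, and 0 were at an unadjusted p under 0.05. DNAJB1 had a mean of 133 ± 6.76 CPM with cyclosporine, against 103 ± 1.14 CPM in vehicle series 1 and 135 ± 5.06 CPM in vehicle series 2.

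Genes that work beside the ER lumen members rose with cyclosporine as well: 10 of 18 ER chaperone and unfolded protein response genes rose and 0 fell, with a median of 0.73 against 0.00 over all genes. Of all genes 0.703% rose. ATF4, a transcription factor of the stress response, changed by 1.37 ± 0.12, CRELD2, an ER disulfide isomerase, by 1.10 ± 0.07 and HSPA5 by 0.97 ± 0.06. The exchange factors of BiP rose too, HYOU1 by 1.21 ± 0.08 and SIL1 by 0.66 ± 0.11, and so did SEC63, the J protein of the translocon, by 0.62 ± 0.08. HYOU1 reached 368 ± 8.64 CPM with cyclosporine, against 160.1 ± 17.9 CPM over the 6 vehicle libraries, and 235 ± 13.8 CPM with mercuric chloride. DNAJC10 was thus above vehicle with cyclosporine and below it with mercuric chloride, in values that share the vehicle libraries.

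**Figure D4:**
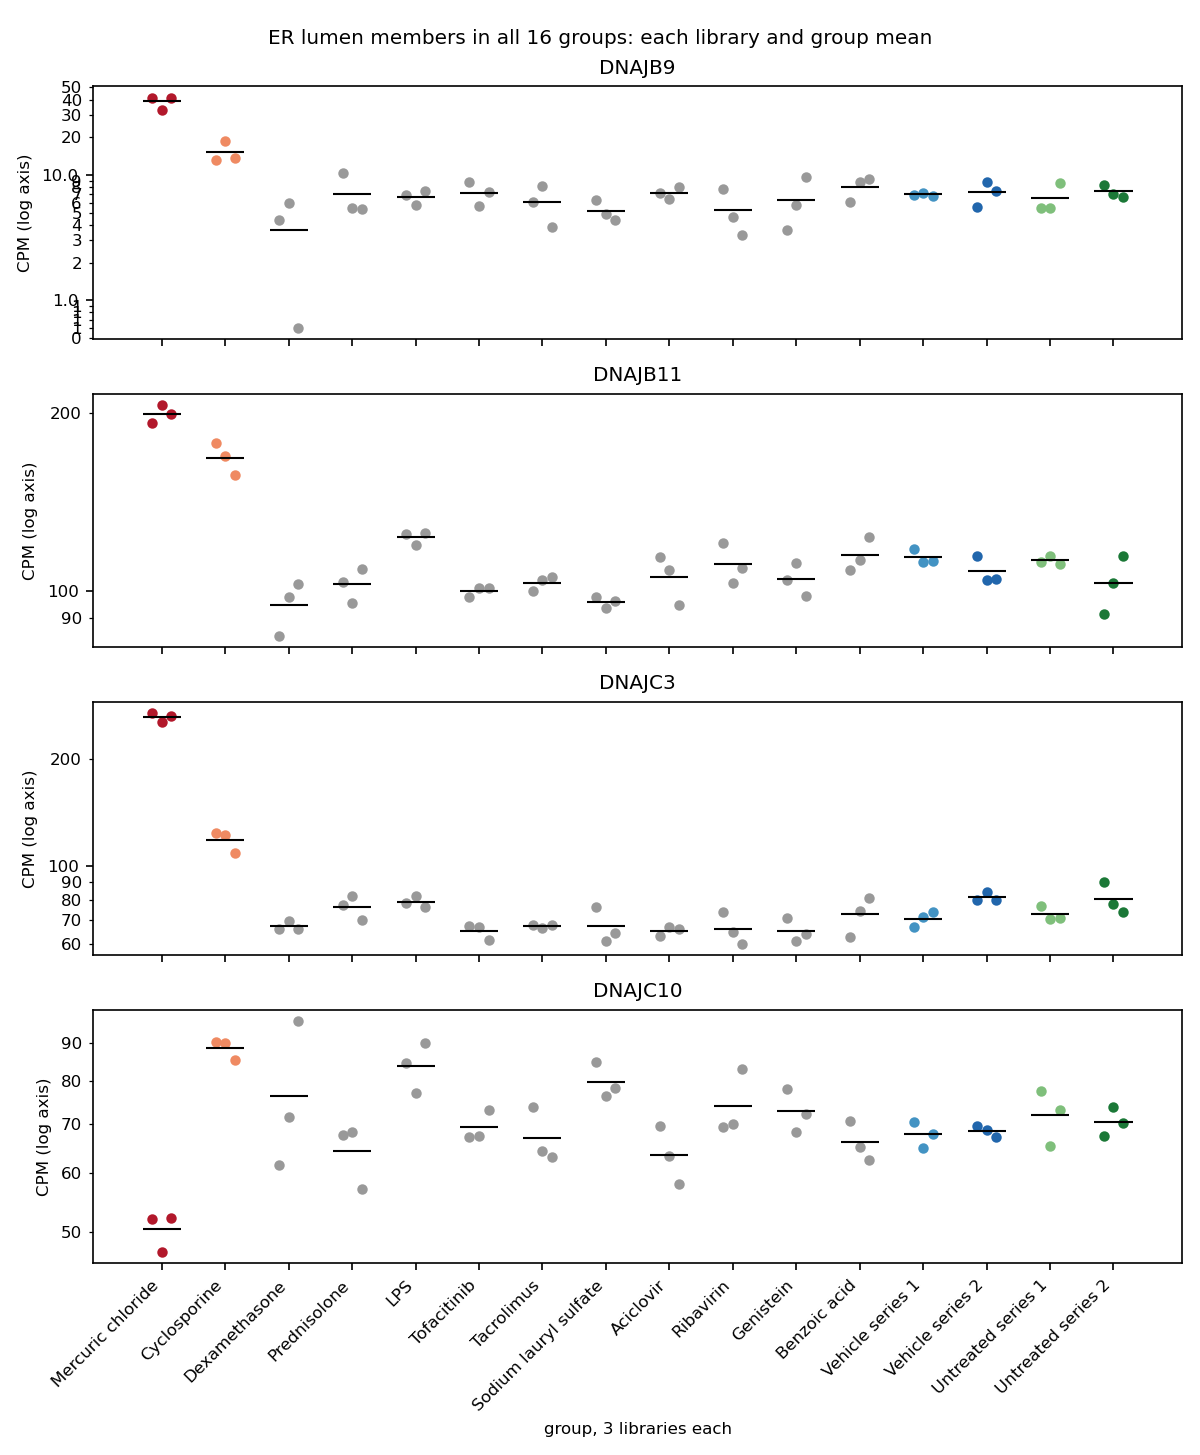
CPM per library, on a log axis, of the ER lumen members DNAJB9, DNAJB11, DNAJC3 and DNAJC10 in all 16 groups, with 3 points per group. Cyclosporine and mercuric chloride points stand above the vehicle points in DNAJB9, DNAJB11 and DNAJC3, and in DNAJC10 the mercuric chloride points stand below them.

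Dexamethasone gave small changes in 5 members of several compartments. DNAJC24, or DPH4, which serves diphthamide synthesis, had 31.6, 33.1 and 34.99 CPM with dexamethasone, against 19.7, 22.6 and 24.2 CPM with vehicle (lowest, median and highest; log2 0.58 ± 0.12, adjusted p = 0.00922). DNAJB1 had 149, 161 and 211 CPM against 102, 117 and 140.4 CPM (log2 0.56 ± 0.09, adjusted p = 0.0212). Neither gene's groups overlapped. DNAJC19 had 24.6, 28.9 and 11.5 CPM against 33.3, 35.1 and 37.2 CPM (log2 -0.70 ± 0.15, adjusted p = 0.00529). DNAJC15, or MCJ, its relative at the mitochondrial inner membrane, had 53.6, 47.1 and 29.7 CPM against 58.6, 62.1 and 69.3 CPM (log2 -0.53 ± 0.13, adjusted p = 0.0214). DNAJC9 had 28.3, 32.0 and 32.3 CPM against 37.9, 47.97 and 62.4 CPM (log2 -0.63 ± 0.08, adjusted p = 0.0241), and these 3 genes lay below vehicle in every dexamethasone library. In all 2 members lay above all vehicle libraries (8.41% of genes) and 5 below (7.37%).

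Dexamethasone replicate 3 held the extreme value of DNAJB1, DNAJC15 and DNAJC19, and without it their log2 fold changes were 0.39, -0.32 and -0.39 and no longer called, which left 2 members. DNAJB1 also lost its call without vehicle series 2 replicate 2 (0.54) or 3 (0.56), and DNAJC15 without vehicle series 1 replicate 1 (-0.54) or 2 (-0.52), and without either of these last libraries 3 members were called. DNAJB9 had 0.603 CPM in that library, against 4.36 and 5.95 CPM in the other 2 of its group and 5.50 to 8.76 CPM with vehicle, and was not called. The call of DNAJC9 was lost without dexamethasone replicate 1 (log2 -0.58) or any of the vehicle series 1 replicates (-0.64 to -0.63). With the dexamethasone and vehicle libraries fitted alone 0 members were called, where 511 of 13856 genes were. Among the partners, FKBP5, a cochaperone of HSP90 and a known glucocorticoid target, stood at 1115 ± 308 CPM with dexamethasone, against 75.3 ± 6.04 CPM with vehicle (log2 3.89 ± 0.10). The mitochondrial HSP70 gene HSPA9 fell by 0.55 ± 0.07 and HSPD1 by 0.44 ± 0.08.

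DNAJC9 was the member that fell in 3 treatments, with mercuric chloride, dexamethasone and tofacitinib. With tofacitinib it had 28.1, 31.7 and 30.3 CPM, against 39.5, 38.1 and 37.9 CPM in vehicle series 1 and 60.5, 62.4 and 56.5 CPM in vehicle series 2 (log2 -0.68 ± 0.08, adjusted p = 0.0246). Against vehicle series 1 the log2 fold change was -0.36 and against series 2 it was -0.996. The tofacitinib call was lost without tofacitinib replicate 1 (-0.63) or 3 (-0.69), without any replicate of vehicle series 1 (-0.68 to -0.67), and with no filter on low counts (-0.68). The 3 comparisons share the vehicle libraries. Its exons overlap those of DNAJC9-AS1, FAM149B1 and MRPS16, and how their reads divide is uncertain.

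Under LPS the 1 called member was DNAJC5B, with 1.39, 3.72 and 2.78 CPM, against 7.85, 6.93 and 3.78 CPM in vehicle series 1 and 7.01, 6.28 and 8.69 CPM in vehicle series 2 (log2 -1.34 ± 0.28, adjusted p = 0.00619). The highest LPS library lay just under the lowest vehicle library, and the call was lost without LPS replicate 1 (-1.04, adjusted p = 0.107) or vehicle series 1 replicate 1 (-1.24, adjusted p = 0.0696). Over the 16 groups DNAJC5B was lowest with LPS, at 2.63 ± 1.18 CPM, and highest with mercuric chloride, at 15.0 ± 0.927 CPM, with cyclosporine next at 10.5 ± 0.653 CPM, which was not called.

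**Figure D5:**
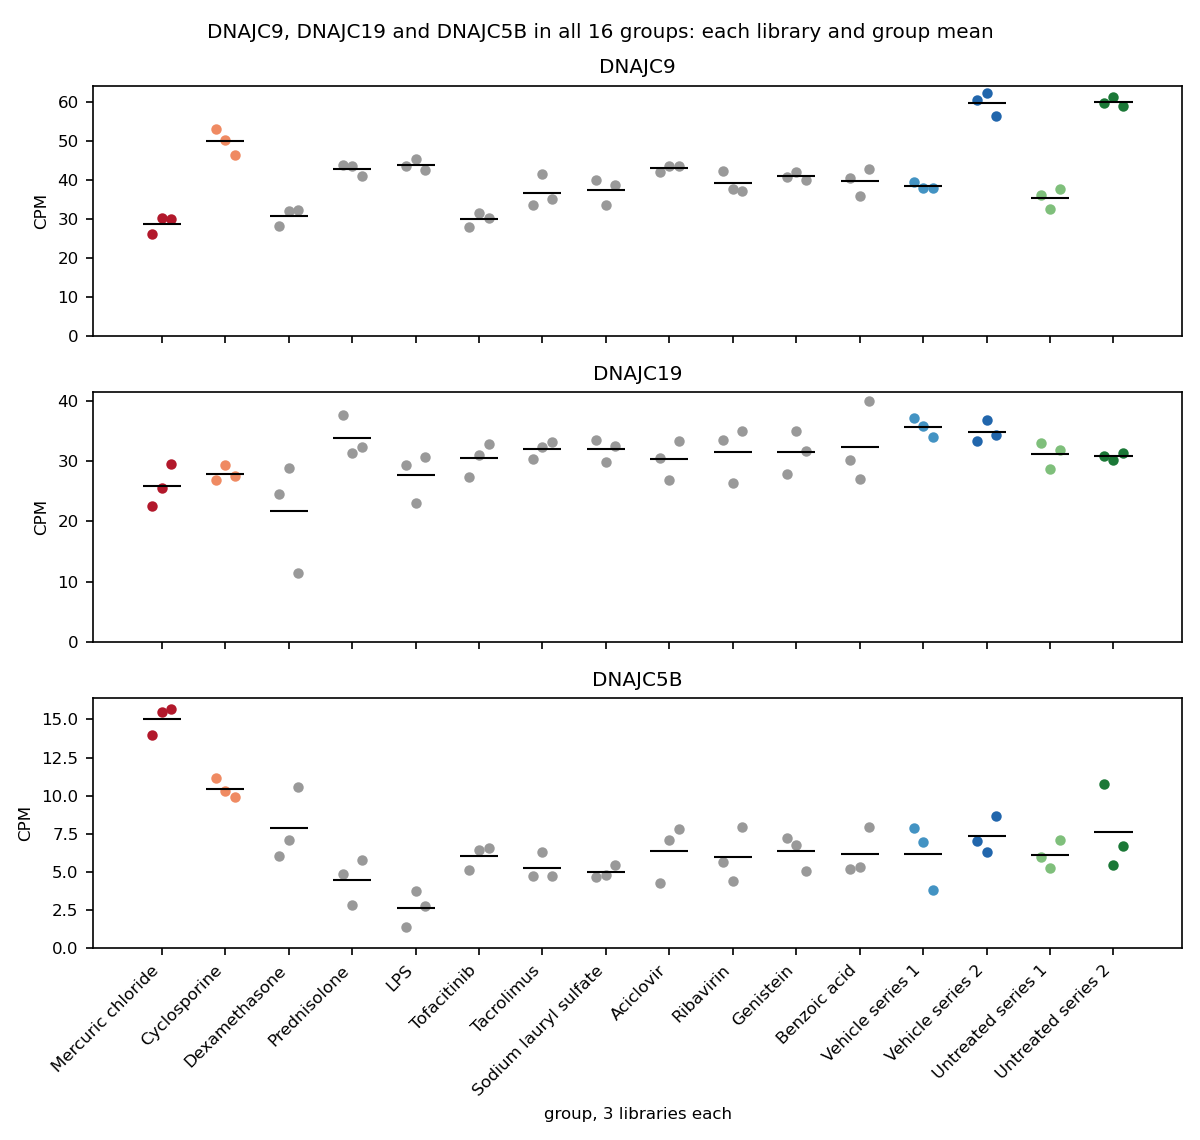
CPM per library of DNAJC9, DNAJC19 and DNAJC5B in all 16 groups, with 3 points per group. DNAJC9 is low with mercuric chloride, dexamethasone and tofacitinib and high in both groups of control series 2, DNAJC19 has its lowest point in dexamethasone replicate 3, and DNAJC5B is low with LPS.

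The other 7 treatments gave 0 calls by edgeR among 40 members. The share of all genes called was 0.0575% with tacrolimus, 1.96% with prednisolone, 0.307% with sodium lauryl sulfate, 0.237% with aciclovir, 0.032% with benzoic acid, 0.237% with genistein and 0.147% with ribavirin. At an unadjusted p under 0.05 there were 1, 0, 2, 0, 1, 3 and 4 members in that order. DESeq2 called 1 member with genistein and 1 with ribavirin, where it called 70 and 66 of 15642 genes. With the other 5 treatments it called 0 members. Tacrolimus inhibits calcineurin as cyclosporine does. Of the 2 members called with cyclosporine, DNAJC3 had 67.9, 66.6 and 67.8 CPM with tacrolimus, against 67.1 to 84.5 CPM with vehicle. DNAJB11 had 100, 105 and 106 CPM, against 104 to 118 CPM with vehicle. DNAJB9, not called with cyclosporine, averaged 6.04 ± 2.18 CPM with tacrolimus, against 6.99 ± 0.188 CPM in vehicle series 1 and 7.26 ± 1.64 CPM in vehicle series 2 (log2 -0.24). Whether the cyclosporine and tacrolimus values differ was not tested.

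No member was called between vehicle and untreated libraries: 0 of 40 were called by edgeR and by DESeq2 and 0 were at an unadjusted p under 0.05, where 0% of all genes were called. The test of whether that difference itself changed between the series also gave 0 calls among the members, with 0 at an unadjusted p under 0.05, and 0 calls among all genes.

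Between the control series 14 members differed, 10 higher and 4 lower in series 2, where 30.1% of all genes were called, 15% higher and 15.2% lower. DNAJB12 had 31.8, 30.3 and 35.1 CPM in vehicle series 2 and 33.0, 35.7 and 30.7 CPM in untreated series 2, against 20.2, 20.2 and 15.3 CPM in vehicle series 1 and 22.0, 21.0 and 18.8 CPM in untreated series 1 (log2 0.74 ± 0.10, adjusted p = 2.53e-07). DNAJC9 had 56.5 to 62.4 CPM in the 6 libraries of series 2, against 32.6 to 39.5 CPM in the 6 of series 1 (log2 0.70 ± 0.07, adjusted p = 1.43e-11). DNAJC21, a factor of ribosome biogenesis, differed by 0.68 ± 0.08 and DNAJC8 by 0.62 ± 0.06. Neither DNAJB12 nor DNAJC9 overlapped between the series, and the share of all genes without overlap was not counted there. Higher in series 2 were also DNAJC2 (0.62), DNAJA2 (0.53), DNAJC1 (0.52), DNAJB1 (0.40), DNAJC5 (0.31) and DNAJC3 (0.17).

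DNAJA4 had 65.8 to 82.0 CPM in series 2, against 82.9 to 109.6 CPM in series 1 (log2 -0.39 ± 0.07, adjusted p = 1.9e-05). DNAJB5 had 0.755 to 2.40 CPM in series 2 against 1.58 to 4.06 CPM in series 1, with overlap (log2 -0.84 ± 0.26, adjusted p = 0.0116), and its call was lost without vehicle series 2 replicate 1 (-0.66, adjusted p = 0.0602). DNAJC16 (-0.36) and DNAJC11 (-0.21) were lower as well, and the small differences of DNAJC3 and DNAJC11 lost their calls when any of several single libraries was left out. No label ties a control series to a chemical, and a member that lies between the series can be called against 1 and not the other. With vehicle series 1 as the only reference cyclosporine gave 18 calls in place of 2, where 3762 of 15642 genes were called in place of 130. With vehicle series 2 as the only reference dexamethasone gave 20 in place of 5, where 4718 genes were called in place of 1340.

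Dexamethasone and prednisolone are close steroid analogues, since dexamethasone carries a fluorine and a methyl group that prednisolone lacks, and both were given at a CV90 whose concentration is not stated. This was 1 of 2 pairs of related compounds set against each other, with p-values adjusted over all genes in each. Between them 9 members differed, 4 higher and 5 lower with dexamethasone, where 9.23% of all genes were called, 5.48% higher and 3.75% lower. DNAJC17, a nuclear J protein with an RNA recognition motif, had 3.59, 3.40 and 2.92 CPM with dexamethasone, against 7.67, 6.76 and 6.93 CPM with prednisolone (log2 -1.11 ± 0.27, adjusted p = 0.00665). DNAJC9 had 28.3, 32.0 and 32.3 CPM against 44.0, 43.7 and 41.0 CPM (log2 -0.47 ± 0.09, adjusted p = 0.000833). DNAJB1 had 149, 161 and 211 CPM against 119.5, 129.8 and 134 CPM (log2 0.44 ± 0.11, adjusted p = 0.00536). None of the 9 overlapped between the steroids, and the share of all genes without overlap was not counted for this pair. DNAJC24 (0.43), DNAJC5 (0.40) and DNAJC8 (0.26) were higher too, and DNAJC19 (-0.64), DNAJC15 (-0.43) and DNAJA3 (-0.40) lower.

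Without dexamethasone replicate 3, calls were lost by DNAJA3 (-0.27), DNAJB1 (0.28), DNAJC5 (0.21), DNAJC15 (-0.22), DNAJC19 (-0.33) and DNAJC24 (0.40). Without that library the count of members that differed between the steroids was 3, without prednisolone replicate 1 it was 4, without prednisolone replicate 3 it was 5, and with the 6 libraries fitted alone it was 0, where 6 of 13670 genes were called. On unscaled totals 7 members differed, 2 higher and 5 lower, where 600 genes were higher and 817 lower, against 857 and 587 with TMM scaling. Aciclovir and ribavirin are nucleoside analogues, aciclovir of guanosine with an open-chain sugar and ribavirin with a triazole base. They differed in 2 members, where 5.76% of all genes were called, 2.49% higher and 3.27% lower with aciclovir. DNAJC4 had 14.7, 15.2 and 18.3 CPM with aciclovir, against 8.995, 10.1 and 7.63 CPM with ribavirin (log2 0.85 ± 0.20, adjusted p = 0.00726). DNAJA4 had 109, 86.2 and 88.5 CPM against 111, 127 and 129 CPM (log2 -0.37 ± 0.09, adjusted p = 0.0129). Each call was lost without aciclovir replicate 3 or ribavirin replicate 3, and DNAJA4 also without replicate 2 of either. With edgeR's relative log expression (RLE) size factors in place of TMM, 2 members were higher and 1 lower, where 416 and 474 of 15642 genes were.

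Outside mercuric chloride and dexamethasone, the group means of DNAJB1 went from 97.6 ± 2.94 CPM with genistein to 147 ± 9.88 CPM in untreated series 2. The dexamethasone mean was 174 ± 32.5 CPM. Its libraries, at 149 to 211 CPM, overlapped those of untreated series 2, at 136 to 154 CPM. The 15 members called in no treatment were DNAJA2, DNAJC1, DNAJC4, DNAJC5, DNAJC6, DNAJC13, DNAJC14, DNAJC16, DNAJC17, DNAJC18, DNAJC21, DNAJC22, DNAJC27, DNAJC28 and DNAJC30. DNAJC28 had 2.11, 2.18 and 1.86 CPM with mercuric chloride, against 0.178, 0.563 and 1.42 CPM with vehicle (lowest, median and highest), and was not called (log2 1.62 ± 0.70, adjusted p = 0.238). Of the 5 members under the filter, DNAJC12 had 0.958, 0.218 and 0.619 CPM with mercuric chloride against 0 to 0.235 CPM with vehicle, and DNAJC5G 0.766, 0.436 and 0.826 CPM against 0 to 0.235 CPM, and neither was tested.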

How the data were processed

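Gene counts were deposited by the authors for 48 THP-1 RNA-seq libraries in 16 groups, as whole counts per gene with no normalization. Per the submitters' processing notes, Bowtie2, bedtools and build hg19 (GRCh37) were used. Versions, annotation and strand use: not given in the sources used here. Each file held 25737 rows, and rows of the 286 symbols found on several were summed, which gave 24462 symbols. The filterByExpr filter of edgeR 4.0.16 (R 4.3.3) kept 15642. Without the mercuric chloride libraries it kept 14965, so the shares of all genes given for mercuric chloride include genes that passed through those libraries. All 48 libraries entered 1 quasi-likelihood fit with TMM scaling, 32 residual degrees of freedom and a common biological coefficient of variation of 0.122. Every chemical had a contrast with each vehicle series, and the larger p was kept where both had the same sign and set to 1 otherwise, with Benjamini-Hochberg adjustment over all genes and a threshold of 0.05.

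By rule, called members whose log2 fold change reached 1 in size were given with their value in each library, other called members with their log2 fold change, uncalled members by name, and at most 4 called genes per partner list. Library values of further members were added after values were seen. The list of J proteins under other symbols is not reported here for mercuric chloride. The members and lists were chosen with earlier results of these data known. The fit was also run on simulated counts for the mercuric chloride and vehicle groups. Both vehicle series were drawn there from a shared mean, so that run does not cover the difference between the series. Alternatives were other scaling (edgeR's RLE size factors, unscaled totals), no filter, the Wald test of DESeq2 1.42.0, each vehicle series alone, the compared libraries alone, a replicate block, leaving out each library, and, chosen after seeing the data, a fit without the mercuric chloride libraries. Promoters were RefSeq's on GRCh38.p14, used for sequence only. Depth is given as total counts, and counting error covers reads and not molecules.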

Additional observations from a re-analysis of the deposited data

How the results depend on the processing

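The 23 members called with mercuric chloride numbered 21 to 23 when single libraries were left out, and the 14 between control series 12 to 14. With vehicle series 1 as the only reference, dexamethasone gave 8 called members, tofacitinib 5, LPS 3, benzoic acid, genistein and ribavirin 1 each, and cyclosporine 18. Of 15642 genes, 3345, 1725, 2376, 345, 280, 418 and 3762 were called in that order of treatments. With vehicle series 2 as the only reference, dexamethasone gave 20, genistein 15, tofacitinib 14, aciclovir 13, prednisolone 12, sodium lauryl sulfate, LPS and ribavirin 11 each, tacrolimus 10 and benzoic acid 7. The genes called were 4718, 3208, 2952, 4153, 3939, 2802, 3772, 2647, 2829 and 834 in that order. With the compared libraries fitted alone, dexamethasone gave 0, tofacitinib 4, LPS 2, genistein 3, ribavirin 1, cyclosporine 5 and dexamethasone against prednisolone 0, where 511, 769, 1468, 446, 157, 401 and 6 genes were called in that order. DESeq2 gave 1 with genistein, 1 with ribavirin and 4 for aciclovir against ribavirin, where 70, 66 and 1028 of 15642 genes were called. With no filter on low counts tofacitinib gave 0, where 304 of 22368 genes were called. Leaving out single libraries gave 2 to 7 with dexamethasone, 0 to 1 with tofacitinib, 0 to 2 with LPS, 0 to 1 with ribavirin, 2 to 3 with cyclosporine, 3 to 12 for dexamethasone against prednisolone and 0 to 3 for aciclovir against ribavirin. For fits that left out a library the number of all genes called is not given. Whether member counts moved there apart from those of all genes cannot be told. The cause was not tested in any of these. Of 59 single-member results, which are the calls and cyclosporine's DNAJB9 and DNAJC10, none changed sign under the alternatives run, and other uncalled members were not followed. Of their calls 14 were lost with the compared libraries alone, 8 with unscaled totals, 7 with no filter on low counts, 2 with RLE size factors, 1 with the DESeq2 test and 1 without the mercuric chloride libraries, DNAJC11 between control series (-0.19).

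Replicate numbers did not pair the libraries: over 72 pairs of same-numbered libraries the correlation of deviations from group means was -0.08 to 0.04. With the replicate number as a block 23 members were called with mercuric chloride, and no call of the 59 single-member results changed. Single libraries decided calls both at low levels (DNAJB7) and at high ones (DNAJC2), and depth as a limit was not tested.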
